A study of Rattus norvegicus with 22 samples.

Results

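Microsphere pulmonary embolism (PE) of the rat lung was described here through 6 cytokine genes. They are Tnf (tumor necrosis factor), Il1a and Il1b (interleukin-1 alpha and beta), Il1rn (the interleukin-1 receptor antagonist), Il10 (interleukin-10) and Il18 (interleukin-18). They were chosen by name, with earlier results of these data known, and all probe sets annotated with 1 of these symbols were taken. This gave 8 of the 31042 probe sets tested and 6 of 14217 named genes. Tnf and Il1a each had 2 probe sets, and the values below are from the brighter of the 2 unless the other is named.

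Tissue was right lung from 22 male Sprague–Dawley rats, 1 array per rat, of an age not given in the sources used here. All rats were anesthetized and injected in the right jugular vein, and all lungs were lavaged with saline before excision, so cells free in the airspaces were partly removed from every group. Vehicle rats (3 at 2 h and 3 at 18 h) received 0.15 ml per 100 g of 0.01% Tween 20. Mild PE rats (4 at each time) received 1300000 polystyrene microspheres of 25 micron in 0.10 ml per 100 g, and Severe PE rats (4 at each time) received 2000000 in 0.15 ml per 100 g. Mild PE thus differed from both other groups in volume as well, and the parts of volume and of microspheres in its differences cannot be told apart. The emboli are inert beads and not blood clots, which limits the model as a model of thromboembolism.

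TNF and interleukin-1 are made quickly by macrophages, monocytes and other cells when tissue is injured, and they switch on adhesion molecules and chemokines that draw leukocytes into the lung. Their action is held back by proteins that are often made later. The receptor antagonist occupies the interleukin-1 receptor without signaling, decoy receptors bind the ligand, and interleukin-10 lowers cytokine production by macrophages. Interleukin-18 belongs to the interleukin-1 family and, unlike Il1b, is stored as a precursor in many resting cells.

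The DNA just before the transcript start is shown for Tnf, Il1b and Il1rn. They had the largest differences from Vehicle among the 5 genes for which this sequence was matched. The 150 bases upstream of the start were taken from RefSeq (GRCr8) for Tnf (chr20:3626535-3626684, plus strand), Il1b (chr3:137036582-137036731, minus strand) and Il1rn (chr3:27520172-27520321, plus strand). Capitals mark the TATA-box letters TATAAA and the letters of a nuclear factor kappa B site (GGG, any 2 bases, then TTTCC), both searched on both strands, and the motifs did not overlap.
Tnf: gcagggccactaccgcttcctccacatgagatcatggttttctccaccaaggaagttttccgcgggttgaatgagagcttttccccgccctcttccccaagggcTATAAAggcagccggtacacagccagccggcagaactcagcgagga
Il1b: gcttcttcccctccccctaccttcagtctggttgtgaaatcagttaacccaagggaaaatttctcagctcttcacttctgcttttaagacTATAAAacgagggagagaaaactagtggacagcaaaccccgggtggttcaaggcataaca
Il1rn: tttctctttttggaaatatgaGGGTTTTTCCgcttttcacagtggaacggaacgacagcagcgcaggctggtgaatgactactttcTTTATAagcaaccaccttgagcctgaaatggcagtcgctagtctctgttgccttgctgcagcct
TATAAA began 46 bases before the start in Tnf and 60 bases before it in Il1b, and in Il1rn it lay on the opposite strand 64 bases before the start. The nuclear factor kappa B letters were found 129 bases before the start of Il1rn and in no other of the 5 windows. Among 33469 windows of the same length, 8% held TATAAA and 0.795% held the nuclear factor kappa B letters. Il1a had TATAAA 32 bases before its start and Il18 had neither motif. Windows were matched for 5 of the 6 genes, Il10 being the exception. Such a match describes letters and does not show a bound site. Other spellings of a nuclear factor kappa B site were not searched, so a window without a match may still hold such a site.

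A difference was called when limma's adjusted p (Benjamini and Hochberg over 31042 probe sets) was under 0.05 and the group means differed at least 1.5-fold. Signals under 16 were set to 16, which is 4 on the log2 scale and is referred to as the floor. The arrays had been scaled to nearly the same trimmed mean (500.1 to 500.2), and the 3 or 4 arrays per group limit the precision. Of 10 lung markers listed (surfactant, airway, alveolar and endothelial genes), 9 were measured and none was at the floor, and their summed signal ran from 118157 to 139409 over all rats. In 4 rats the 5′ end of the Gapdh control transcript was weaker against its 3′ end (log2 3′ minus 5′ of 0.35 to 0.64, against 0.18 to 0.32 in the other 18), namely Vehicle rat 3 and Severe PE rat 1 at 2 h, and Vehicle rat 1 and Mild PE rat 4 at 18 h. All values are from whole tissue, where more cells of a type and more RNA per cell cannot be told apart. Comparisons with Vehicle at the same time share the 3 Vehicle rats.

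Tnf was the gene with the widest range, from a mean log2 level of 7.34 in 2-h Vehicle to 11.46 in 2-h Mild PE. Its deposited signal (linear scale) was 249.5, 156 and 129 in the 2-h Vehicle rats and 3286, 2799, 2389 and 2701 in 2-h Mild PE. In 2-h Severe PE it was 718, 1343, 718 and 840.2. Every Mild PE rat was above every Severe PE rat, and every Severe PE rat was above every Vehicle rat. At 18 h the signals were 155, 169.5 and 191 in Vehicle, 717, 814, 429 and 528 in Mild PE, and 662, 568, 523 and 272 in Severe PE. Both doses were still above all Vehicle rats at 18 h and overlapped each other.

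**Figure D1:**
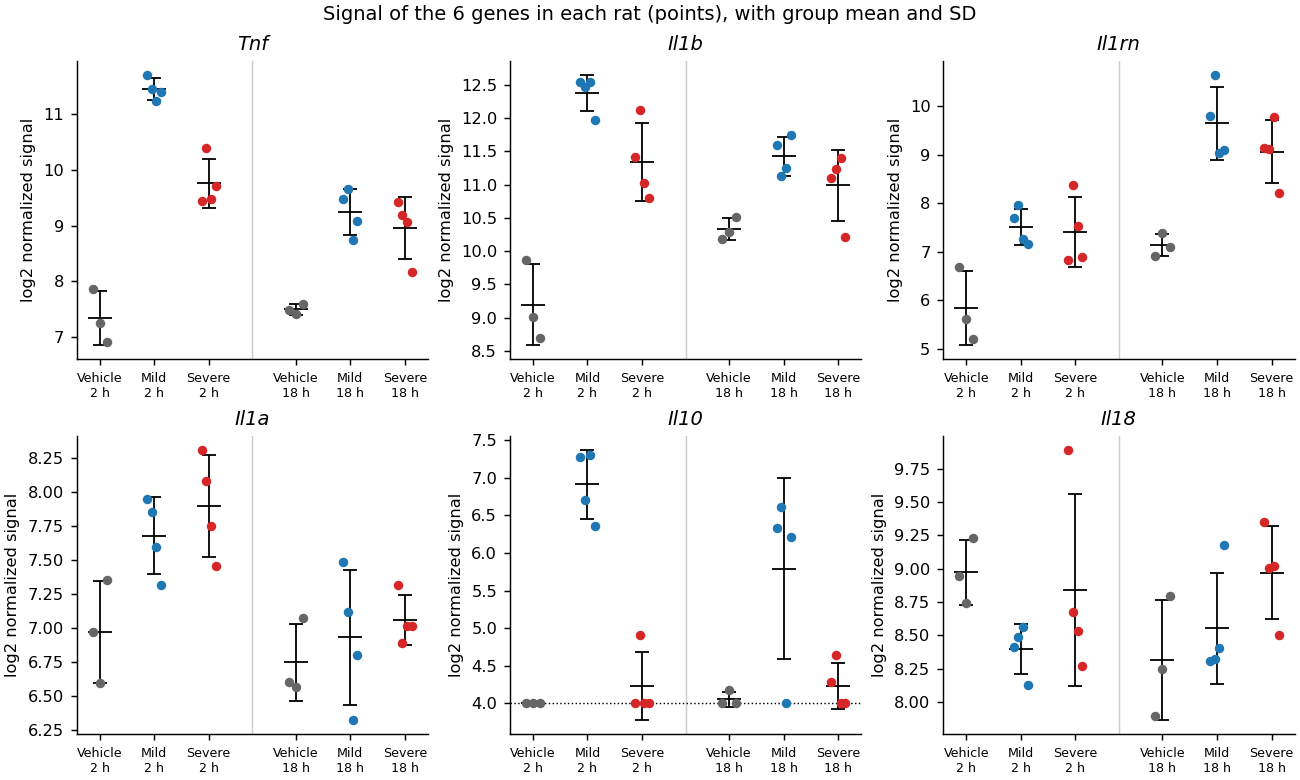
Log2 normalized signal of each gene (y axis) in each rat (points) of the 6 groups (x axis), with the group mean and SD as bars. Tnf and Il1b were highest in 2-h Mild PE, Il1rn was highest in the 18-h PE groups, and Il10 was at the floor (dotted line, log2 of 4) in all 3 rats of 2-h Vehicle and in 3 of 4 of 2-h Severe PE.

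In 2-h Mild PE against 2-h Vehicle, 3 of the 6 genes were called higher (Tnf, Il1b and Il10) and none lower, where 0.331% of all genes were called higher. The log2 difference of Tnf was 4.11 (SE 0.25, 95% CI 3.50 to 4.72, adjusted p = 0.0103, limma). The PE and Vehicle rats did not overlap for 5 genes, 4 higher with Mild PE (those 3 and Il1rn) and Il18 lower, where 8.34% and 6.82% of all genes did so. In 2-h Severe PE none of the 6 passed the limma test, where 0.0422% of all genes were called. The Tnf difference there was 2.42 (95% CI 1.61 to 3.23, unadjusted p = 0.00037, adjusted p = 0.136, limma), so a size 5.35-fold above Vehicle was measured without passing. At an unadjusted p under 0.05, 4 of the 6 genes were higher there (Tnf, Il1a, Il1b and Il1rn), and the methods' t-test with the same adjustment also called 0. The share of all genes at that unadjusted threshold was not counted, here or in the comparisons below, so such counts have no rate to be judged by. The same 4 genes stood above Vehicle without overlap in normalized values, where 4.29% of all genes did. For Il1a the deposited signals did overlap (172 in Severe PE rat 4 against 178 in Vehicle rat 3). Its second probe set overlapped Vehicle too (log2 difference 0.66, adjusted p = 0.706, limma). With 1 limma fit on all 22 arrays, Tnf (adjusted p = 0.000342) and Il1b (adjusted p = 0.00224) were called in 2-h Severe PE. The adjusted p over all settings tried ranged from 0.000342 to 0.753 for Tnf and from 0.00224 to 0.753 for Il1b. Set directly against each other, 2 of the 6 genes were called lower in 2-h Severe PE than in 2-h Mild PE (Tnf and Il10), where 0.246% of all genes were. The log2 difference of Tnf was −1.69 (SE 0.23, adjusted p = 0.0398, limma), and 4.92% of all genes were lower without overlap between the doses, as these 2 were.

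The Tnf calls at 2 h depended on single rats. Its difference in 2-h Mild PE lay between 3.90 and 4.38 whichever rat was left out, but the adjusted p rose to 0.0556, 0.0668 and 0.0507 (limma) without Mild PE rat 1, 2 or 3. The call between the doses was lost without any single Mild PE rat (adjusted p 0.103 to 0.12) and without Severe PE rat 3 or 4 (0.0897 and 0.0892). The second Tnf probe set gave 3.96 in 2-h Mild PE (adjusted p = 0.000931) and −1.90 between the doses, which did not pass (adjusted p = 0.0525, limma).

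At 18 h, Tnf was the single gene of the 6 called in Mild PE against Vehicle, where 0.76% of all genes were called higher. It was 1 of 3 genes above Vehicle without overlap there, with Il1b and Il1rn, where 10.2% of all genes were. Its log2 difference was 1.75 (SE 0.23, adjusted p = 0.0417, limma), which the second probe set gave as 1.03 (adjusted p = 0.122). In 18-h Severe PE, Tnf and Il1rn were called higher, 2 of 6 where 4.29% of all genes were, and both also stood above Vehicle without overlap, where 14.5% did. The Tnf difference was 1.46 (SE 0.31, adjusted p = 0.0417, limma), and 0.99 with the second probe set (adjusted p = 0.038). None of the 6 was called between the doses at 18 h, where 0% of all genes were, and the methods' t-test called 0. There 1 gene (Il10) had an unadjusted p under 0.05, with no share of all genes counted. The Tnf difference there was −0.28 (95% CI −1.05 to 0.48). Neither 18-h Tnf call held without most single rats. The exceptions were Mild PE rat 3 (adjusted p = 0.0293 without it) and Severe PE rat 4 (adjusted p = 0.0141), and the other adjusted p values ran from 0.0785 to 0.112 (limma).

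Between 2 h and 18 h the level of Tnf fell by 2.21 on the log2 scale in Mild PE (SE 0.21, adjusted p = 0.00375, limma), and this call held whichever rat was left out. Across the same interval in Mild PE, Tnf and Il1b were called lower (2 of 6, where 3.5% of all genes were) and Il1rn higher (1 of 6, where 3.6% were). In Severe PE the change of Tnf was −0.80 (95% CI −1.59 to −0.02), which did not pass (adjusted p = 0.203). The Mild PE effect on Tnf was smaller at 18 h than at 2 h (log2 difference of the effects −2.37, adjusted p = 0.0207), whereas the same contrast in Severe PE was −0.96 (adjusted p = 0.207, limma). The first was lost when 2-h Vehicle rat 3 was left out (adjusted p = 0.0541). Tnf and Il1b were the 2 of 6 genes whose Mild PE effect differed between times, where 1.13% of all genes did, and for the Severe PE effect there was none of 6, where 8.22% did. At an unadjusted p under 0.05 there were 2 for Severe PE (Tnf and Il1b), with no share of all genes counted, and the methods' t-test gave 0.

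**Figure D2:**
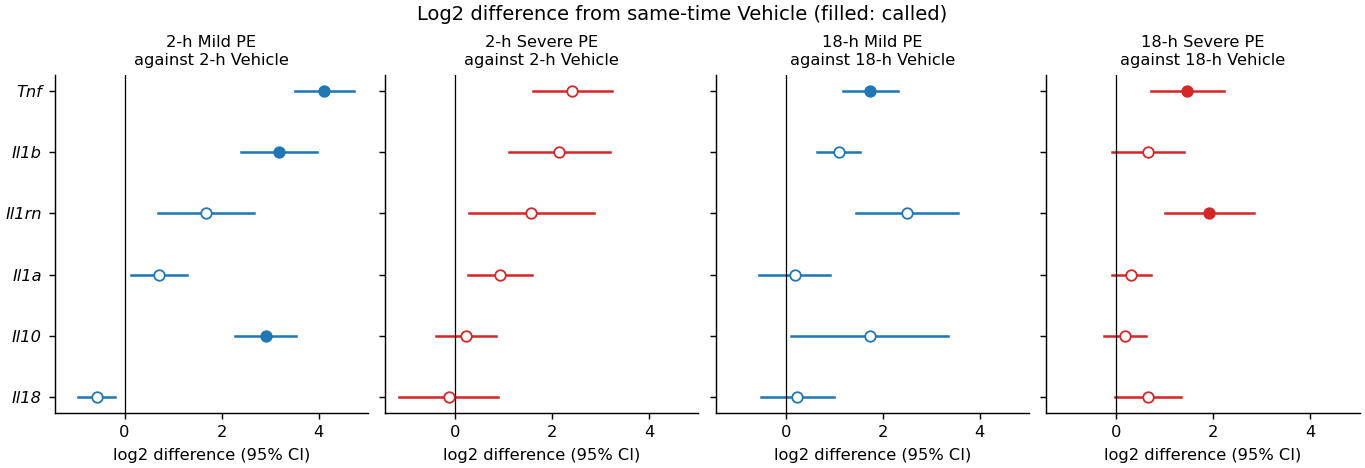
Log2 difference of each gene (rows) between a PE group and Vehicle of the same time (x axis, 1 panel per comparison), with 95% confidence intervals as lines and called differences as filled points. Tnf, Il1b and Il10 were called in 2-h Mild PE, none in 2-h Severe PE, Tnf in 18-h Mild PE, and Tnf and Il1rn in 18-h Severe PE.

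Il1b, the secreted interleukin-1 that needs cleavage by caspase-1 to become active, changed with Tnf in the early samples. Its deposited signal was 959, 525 and 441 in 2-h Vehicle, 5764, 5374, 5624 and 3983 in 2-h Mild PE, and 2681, 4444, 2058 and 1802 in 2-h Severe PE. All PE rats at 2 h were above all Vehicle rats, and the doses overlapped. The log2 difference from Vehicle was 3.19 in 2-h Mild PE (SE 0.31, 95% CI 2.41 to 3.97, adjusted p = 0.0303, limma). It was 2.15 in 2-h Severe PE (95% CI 1.11 to 3.19, adjusted p = 0.255). Between the doses it was −1.04 (95% CI −1.76 to −0.32, adjusted p = 0.227). The call in 2-h Mild PE held only without 2-h Vehicle rat 1 (adjusted p = 0.0252), and without any other single rat the adjusted p was 0.0548 to 0.117.

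By 18 h the Il1b signals were 1161, 1258 and 1467 in Vehicle, 3068, 2225, 2442 and 3482 in Mild PE, and 2199, 2416, 2695 and 1159.6 in Severe PE. All Mild PE rats exceeded Vehicle, and Severe PE rat 4 was close to the lowest Vehicle rat. The log2 differences of 1.10 in Mild PE (adjusted p = 0.0567) and 0.66 in Severe PE (adjusted p = 0.247) did not pass limma's test. Without Severe PE rat 4 the latter was 0.92 (adjusted p = 0.0302). The Vehicle rats themselves were higher at 18 h than at 2 h, by 1.14 on the log2 scale (95% CI 0.27 to 2.01) with no overlap, and this was not called (adjusted p = 0.264, limma). None of the 6 genes was called between the Vehicle groups, where 0% of all genes were, and 2 stood higher at 18 h without overlap, where 17.9% of all genes did. Il1b and Il1rn were the 2 with an unadjusted p under 0.05, with no share of all genes counted, and the methods' t-test called 0. From 2 h to 18 h of Mild PE, Il1b fell by 0.95 (SE 0.19, adjusted p = 0.0255, limma), and that call was lost without 2-h Mild PE rat 1, 2 or 3 or 18-h Mild PE rat 2 or 3 (adjusted p 0.0527 to 0.0748). The difference between the Mild PE effects at 18 h and 2 h was −2.09 (adjusted p = 0.0464, limma), and it kept its call without 2-h Vehicle rat 1 (0.0394) or 18-h Mild PE rat 3 (0.0496) and lost it without any other single rat (0.0649 to 0.122).

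Il1a, the interleukin-1 that is active as an intracellular precursor and is released from damaged cells, showed smaller differences than Il1b, with which it shares chromosome 3. Its deposited signal was 133, 97.2 and 178 in 2-h Vehicle, 254, 239, 208 and 158 in 2-h Mild PE, and 332, 273, 224 and 172 in 2-h Severe PE. At 18 h it was 82.1, 93.4 and 132 in Vehicle, 177, 140.3, 81.6 and 104 in Mild PE, and 155, 114, 125 and 122 in Severe PE. Il1a was highest on average in 2-h Severe PE and not in 2-h Mild PE, the reverse of Tnf and Il1b, but the 2 doses overlapped (log2 difference 0.22, 95% CI −0.31 to 0.75). The highest value was that of 2-h Severe PE rat 1, a rat of weak 5′ signal, and without it the difference was 0.085. Its log2 differences from Vehicle were 0.71 and 0.93 in 2-h Mild and Severe PE and 0.18 and 0.31 at 18 h, with adjusted p values of 0.299 to 0.804 (limma). It fell by 0.84 between 2 h and 18 h of Severe PE (SE 0.20, adjusted p = 0.0472, limma), the single gene of 6 called there, where 3.77% of all genes were called lower. That call was kept without 2-h Severe PE rat 4 (adjusted p = 0.0347) and lost without any other single rat (0.0634 to 0.118), and the second Il1a probe set gave −0.75 (adjusted p = 0.123).

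**Figure D3:**
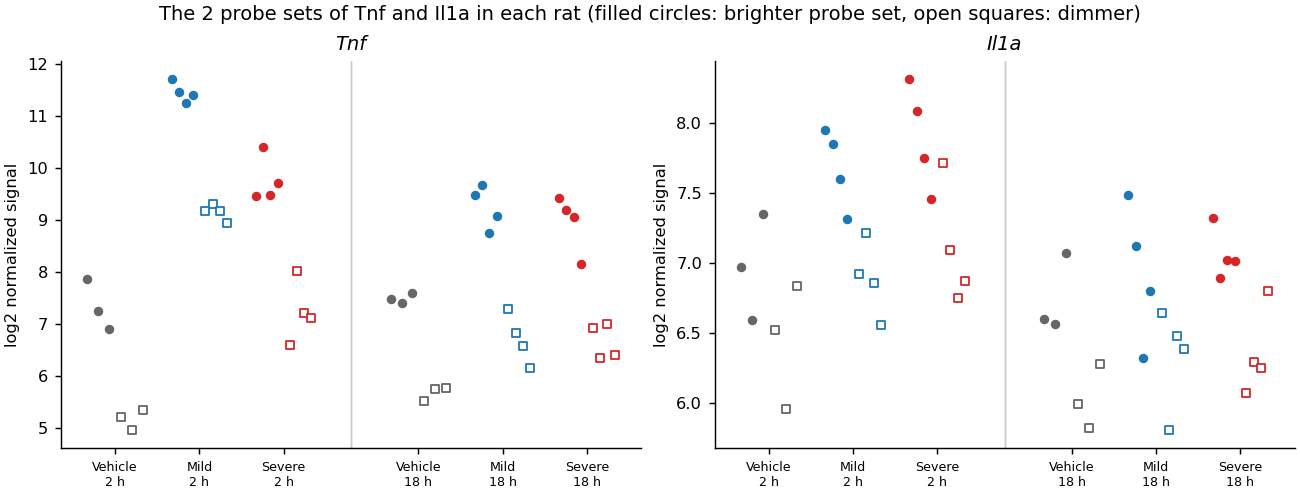
Log2 normalized signal (y axis) of both probe sets of Tnf (left) and Il1a (right) in each rat of the 6 groups (x axis), with the brighter probe set as filled circles and the dimmer as open squares. The 2 Tnf probe sets followed the same order of groups, and those of Il1a overlapped between most groups.

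Il1rn, which encodes the receptor antagonist, reached its highest levels at 18 h. Its deposited signal was 108, 46.1 and 37.9 in 2-h Vehicle, 213, 256, 165 and 143 in 2-h Mild PE, and 121, 329.8, 193 and 118 in 2-h Severe PE. At 18 h it was 103, 166 and 135 in Vehicle, 896, 1594, 519 and 532 in Mild PE, and 535, 542, 859.9 and 278 in Severe PE. Within each time every PE rat was above every Vehicle rat, and at both times the doses overlapped. The log2 differences were 1.68 in 2-h Mild PE (95% CI 0.69 to 2.67, adjusted p = 0.186) and 1.57 in 2-h Severe PE (95% CI 0.28 to 2.86, adjusted p = 0.546), neither of them called. At 18 h they were 2.51 in Mild PE (95% CI 1.45 to 3.56, adjusted p = 0.0615) and 1.92 in Severe PE (95% CI 1.01 to 2.84, adjusted p = 0.0336, limma), so the called difference was the smaller of the 2. With 1 limma fit on all 22 arrays the Mild PE difference was called too (adjusted p = 0.00341, range over all settings tried 0.00341 to 0.27). The Severe PE call was kept without rat 4 of that group (adjusted p = 0.0222) and lost without any other single rat (0.0593 to 0.0954). Between 2 h and 18 h, Il1rn rose by 2.13 in Mild PE (SE 0.40, adjusted p = 0.0207, limma), and the adjusted p passed 0.05 without 2-h Mild PE rat 3 or 4 or 18-h Mild PE rat 1 (0.0511 to 0.0632). The Vehicle rats also differed in Il1rn between the times, by 1.30 (95% CI 0.20 to 2.41, adjusted p = 0.285), and the difference between the Mild PE effects at the 2 times was 0.83 (95% CI −0.54 to 2.20), which did not pass (adjusted p = 0.625, limma).

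Within a rat, the change of Il1rn can be set against the change of Il1b by taking the log2 level of Il1rn minus that of Il1b and setting the mean of same-time Vehicle to 0. At 2 h this difference was −1.51 ± 0.32 (SD, n = 4) in Mild PE and −0.58 ± 0.47 (SD, n = 4) in Severe PE, against 0 ± 0.16 (SD, n = 3) in Vehicle. At 18 h it was 1.41 ± 0.94 (SD, n = 4) in Mild PE and 1.26 ± 0.21 (SD, n = 4) in Severe PE, against 0 ± 0.26 (SD, n = 3) in Vehicle. All 8 PE rats were below every Vehicle rat at 2 h, the closest being Severe PE rat 3 at −0.143 against the lowest Vehicle rat at −0.139. All 8 PE rats were above every Vehicle rat at 18 h. These are descriptions with no test.

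**Figure D4:**
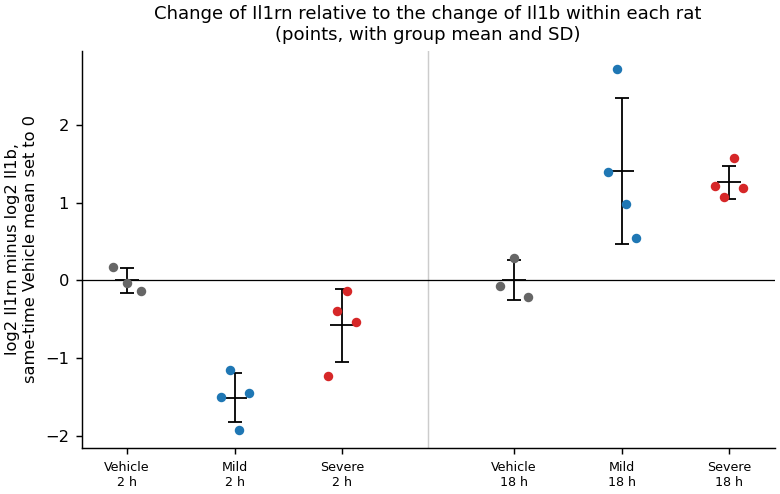
Log2 level of Il1rn minus that of Il1b in each rat, with the mean of Vehicle of the same time set to 0 (y axis), for the 6 groups (x axis), points being rats and bars the mean and SD. The PE rats lie below 0 at 2 h and between 0.545 and 2.72 at 18 h.

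Il10, the anti-inflammatory cytokine of the set, was the dimmest of the 6 and was measured above the floor mainly in Mild PE. Its deposited signal was 160.1, 108, 169.6 and 79.8 in 2-h Mild PE. In 2-h Vehicle it was 1.25, 0.713 and 3.94, and in 2-h Severe PE 2.3, 29.8, 3.57 and 3.73, so that all Vehicle rats and 3 of 4 Severe PE rats were under the floor. At 18 h it was 78.7, 99.5, 14 and 68.5 in Mild PE, 3.48, 18.3 and 11.3 in Vehicle, and 21.4, 25.9, 9.14 and 1.27 in Severe PE. Of the 4 Mild PE rats, 3 stood above all Vehicle and Severe PE rats of that time, and rat 3 lay among these. Against the floor, Il10 was at least 7.52-fold higher in 2-h Mild PE than in 2-h Vehicle (log2 difference 2.91, adjusted p = 0.0238, limma). It was called lower in 2-h Severe PE than in 2-h Mild PE (adjusted p = 0.0237, limma), and the log2 difference of −2.68 is set by the floor in 3 of the 4 Severe PE rats, so that it gives the least size of the difference and not a measured fold. In 18-h Mild PE the difference from Vehicle was 1.73 (95% CI 0.10 to 3.36, adjusted p = 0.245), and without rat 3 it was 2.33 (adjusted p = 0.0142). The 2-h calls were made on few rats, and their p-values rest on spreads that the floor cut short. The floor gave the 2-h Vehicle rats an SD of 0 and left the SD of 2-h Severe PE to rat 2 alone. The call against Vehicle was kept without Mild PE rat 4 (adjusted p = 0.0259) and lost without any other single rat (0.0607 to 0.0956). The call between doses was kept without Mild PE rat 4 or Severe PE rat 1 or 2 (0.0245 to 0.0479) and lost without the others (0.0629 to 0.0857). With a floor of 64 both were lost (log2 differences 0.91 and −0.91, adjusted p 0.324 and 0.193).

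Il18 was called in no comparison. Its deposited signal was 514, 438 and 621 in 2-h Vehicle, 348, 370.2, 394 and 281 in 2-h Mild PE, and 958, 407, 379 and 305 in 2-h Severe PE. At 18 h it was 210.2, 303 and 444 in Vehicle, 316, 318, 336 and 565 in Mild PE, and 628, 499.6, 508 and 344 in Severe PE. The 2-h Mild PE rats were all below the Vehicle rats (log2 difference −0.58, 95% CI −0.95 to −0.20), which was not called (adjusted p = 0.219, limma), and all other groups overlapped their neighbors. Its log2 differences from Vehicle were −0.13 in Severe PE at 2 h, and 0.24 with the mild and 0.66 with the severe dose at 18 h (adjusted p 0.214 to 0.989). Of the rats of weak 5′ signal, those of 2-h Vehicle, 2-h Severe PE and Mild PE at 18 h held the highest Il18 value of their group, and that of 18-h Vehicle the lowest. The part of that in these levels was not tested.

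In the model of time, dose and their interaction over all 22 arrays, 5 of the 6 genes passed at least 1 term, all but Il18, where 29.2% of all genes did. Dose passed for Tnf (adjusted p = 1.74e-06), Il1b (8.89e-05), Il10 (0.000179) and Il1rn (0.00107), 4 of 6 where 13.7% of all genes passed. Time passed for Il1rn (adjusted p = 0.000168), Tnf (0.000604) and Il1a (0.0062), 3 of 6 where 22.6% did. The interaction passed for Tnf (adjusted p = 0.0102) and Il1b (0.0345), 2 of 6 where 5.35% did. All 5 genes still passed whichever array was left out.

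Of the TNF receptors, Tnfrsf1a, the widely expressed death-domain receptor, and Tnfrsf1b, the receptor found mostly on leukocytes and endothelium, were called in no comparison with Vehicle. Tnfrsf1b had log2 differences of 1.38 in 2-h Mild PE (SE 0.20, adjusted p = 0.0772) and 1.28 in 2-h Severe PE (SE 0.32, adjusted p = 0.386), with no overlap with Vehicle in either. Tnfrsf1a was at 0.45 and 0.47 in the 18-h groups (adjusted p 0.111 and 0.051). Of 7 genes listed for TNF receptors, release and related ligands, 1 was called in 2-h Mild PE, Zfp36, whose protein destabilizes cytokine mRNAs including that of Tnf (log2 difference 1.15, SE 0.12, adjusted p = 0.0379, limma), where 0.331% of all genes were called higher. The median of the 7 was 0.20, against 0.01 over all genes. Between 2 h and 18 h of Severe PE, Zfp36 fell by 1.06 (adjusted p = 0.0137), 1 of 7 where 3.77% of all genes were called lower. Its Severe PE effect differed between the times (−1.69, adjusted p = 0.00213, limma), 1 of 7 where 8.22% of all genes were called either way. Between the times of Mild PE, 2 of the 7 were called higher where 3.6% of all genes were, Tnfrsf1a (0.65, adjusted p = 0.00307) and Ltb, which encodes lymphotoxin beta (0.67, adjusted p = 0.0113). Of 10 genes of TNF signaling and response, 1 was called in any comparison with Vehicle, Tnfaip3, which encodes a deubiquitinase that damps nuclear factor kappa B (18-h Mild PE, log2 difference 0.71, SE 0.05, adjusted p = 0.018, limma). There 0.76% of all genes were called higher, and in 18-h Severe PE, where none of the 10 was called, 4.29% were called higher and 5.61% lower.

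Both chains of the interleukin-1 receptor were called higher than Vehicle in 18-h Severe PE and in no other comparison with Vehicle. Il1r1, the signaling receptor, rose by 0.66 in 18-h Severe PE (SE 0.12, adjusted p = 0.0318, limma) and Il1rap, its accessory chain, by 1.27 (SE 0.15, adjusted p = 0.011), while at 2 h all their log2 differences from Vehicle were between −0.22 and 0.07. In 18-h Mild PE, where neither was called, Il1r1 was at 0.83 (SE 0.14, adjusted p = 0.0615) and Il1rap at 0.85 (SE 0.22, adjusted p = 0.122, limma), both without overlap with Vehicle. For Il1r1 the effect differed between the times with either dose (18 h minus 2 h 1.05 in Mild PE, adjusted p = 0.0236, and 0.75 in Severe PE, adjusted p = 0.0286, limma). For Il1rap it differed with Severe PE (1.19, adjusted p = 0.0213). Of 9 receptor, decoy and processing genes, this was 1 for the Mild PE effect, where 1.13% of all genes were called. For the Severe PE effect it was 2 of 9, where 8.22% were. Il1r2, the decoy receptor, had a log2 difference of 2.32 in 18-h Severe PE (SE 0.83), with all 4 rats above Vehicle but spread over 8.50 to 11.95, and was not called (adjusted p = 0.151). Il33, an alarmin of the interleukin-1 family, fell by 1.22 in 18-h Severe PE (SE 0.22, adjusted p = 0.0285, limma). Altogether 3 of 9 receptor, decoy and processing genes were called in 18-h Severe PE, 2 higher and 1 lower, with a median of 0.18 against 0.00 over all genes (4.29% and 5.61% of all genes were called higher and lower). Between the times of Mild PE, 2 of the 9 were called higher and 1 lower, where 3.6% and 3.5% of all genes were. Between those of Severe PE, 2 of the 9 were called higher, where 4.86% were. None of 10 interleukin-1 signaling genes (Myd88, the Irak kinases, Traf6 and others) was called in any comparison with Vehicle or between the doses. At most 4.29% of all genes were called higher and 5.61% lower in these comparisons (18-h Severe PE). Per comparison, 0 to 5 of the 10 had an unadjusted p under 0.05, with no share of all genes counted. Between the times, Myd88, the adaptor of the receptor, was called higher in Mild PE (log2 difference 0.65, adjusted p = 0.00491) and in Severe PE (0.69, adjusted p = 0.00467), and Irak1 in Severe PE (0.72, adjusted p = 0.0026, limma). Irak2 was called lower between the times in Severe PE (−0.69, adjusted p = 0.0239) and for the Severe PE effect (−0.75, adjusted p = 0.0172). These were 2 of 10 higher and 1 of 10 lower between the times in Severe PE, where 4.86% and 3.77% of all genes were. In Mild PE it was 1 of 10 higher, where 3.6% of all genes were. For the Severe PE effect it was 1 of 10, close to the 8.22% of all genes called either way.

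The interleukin-10 receptor chains Il10ra and Il10rb were not called against Vehicle, with log2 differences from it of −0.24 to 0.85 and −0.14 to 0.13. Of 9 genes of the interleukin-10 receptor and its signaling, Socs3, a suppressor of cytokine signaling induced through Stat3, was called in 18-h Severe PE (log2 difference 1.21, SE 0.27, adjusted p = 0.0464, limma), 1 of 9 where 4.29% of all genes were called higher. Il18bp, the soluble inhibitor of interleukin-18, was at 0.61 in 18-h Severe PE (SE 0.17, adjusted p = 0.0852) and not called in any comparison with Vehicle. Of the 4 genes listed with Il18, 2 were measured, and the interleukin-18 receptor chains were not analyzed here. Between the times, 1 of these 2 was called higher in Severe PE, where 4.86% of all genes were. Of the 9 interleukin-10 list genes, 1 was called higher between the times in Mild PE, where 3.6% were.

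**Figure D5:**
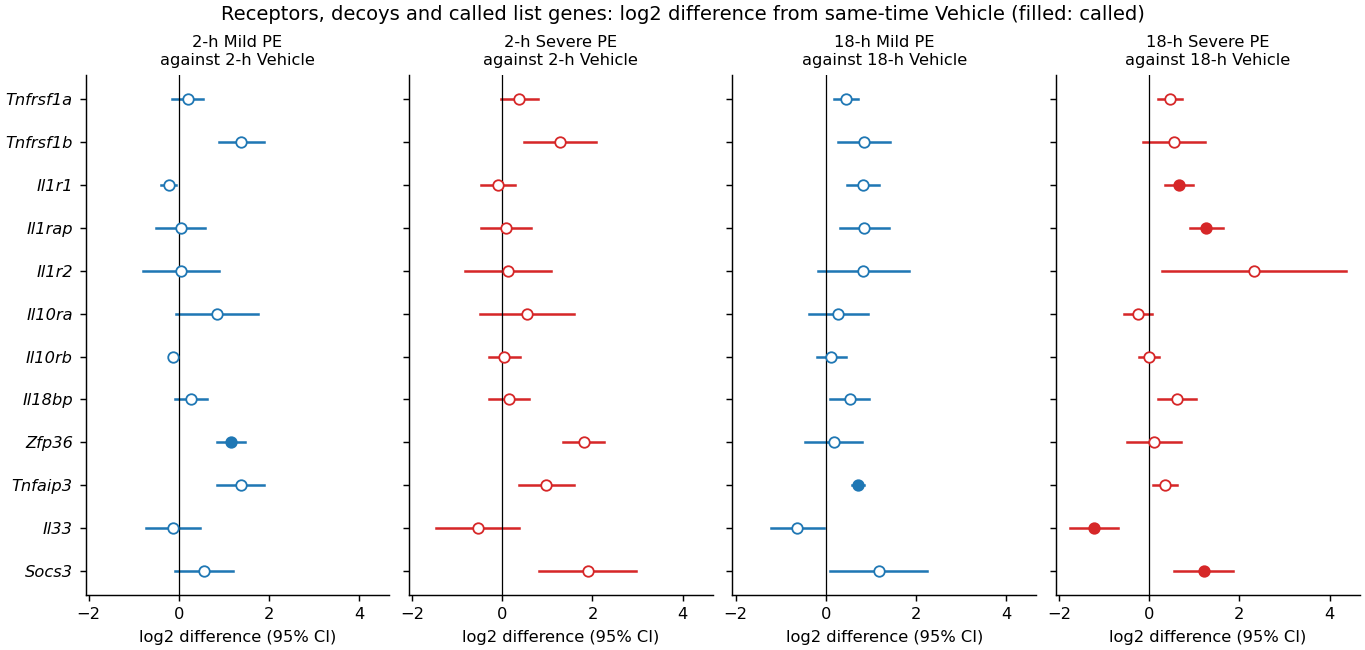
Log2 difference from Vehicle of the same time (x axis, 1 panel per comparison) for receptors, decoys and the other list genes called in such a comparison (rows), with 95% confidence intervals as lines and called differences as filled points. Il1r1 and Il1rap were called in 18-h Severe PE, and the wide interval of Il1r2 there spans 0.28 to 4.36.

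Leukocyte markers differed between the same groups. The summed normalized signal of 3 monocyte markers (Ccr2, Cd14 and Vcan) was 1970.1 to 3230.3 at 2 h in Vehicle, 3731 to 5869 with Mild PE and 2864 to 7325 with Severe PE. At 18 h it was 2595 to 4203, 5790.5 to 8185 and 7498 to 9319 in the same order. Cd14 had a mean log2 level of 12.18, against 7.67 for Vcan and 5.07 for Ccr2, so this sum mostly reads Cd14. Macrophage markers (5 of 8 listed were measured) summed to 7030.0 to 8612 at 2 h in Vehicle, 9388 to 10526 with Mild PE and 7935 to 10491 with Severe PE, and at 18 h to 8236 to 9469, 10522 to 15095 and 9792 to 12520.5. Both lists were thus above Vehicle without overlap in 2-h Mild PE and in both 18-h PE groups. Neutrophil markers (6 of 8 measured) overlapped Vehicle in every PE group, from 5215 to 9362 in 2-h Vehicle, 6662 to 20664 in 2-h Mild PE, 13316 to 25569 in 18-h Vehicle and 19517 to 38042 in 18-h Severe PE. This sum mostly reads S100a9 (mean log2 level 13.19, against 11.75 for S100a8). The median log2 difference of the 6 from Vehicle was 0.78 and 0.20 at 2 h and 0.63 and 0.77 at 18 h (Mild and Severe PE). In Vehicle the median was 1.08 higher at 18 h than at 2 h. Between the times, 2 of the 6 were called higher in Mild PE and 3 in Severe PE, where 3.6% and 4.86% of all genes were. No marker of these lists was at the floor on all arrays. Cd14 was called in 18-h Severe PE (log2 difference 1.18, adjusted p = 0.0226), Vcan in both 18-h groups (2.13 and 2.85, adjusted p 0.0498 and 0.011) and Cd163 in 18-h Severe PE (2.07, adjusted p = 0.044, limma), and no marker of the 3 lists was called against Vehicle at 2 h. In 18-h Mild PE this was 1 of 3 monocyte markers, where 0.76% of all genes were called higher. In 18-h Severe PE it was 2 of 3 monocyte and 1 of 5 macrophage markers, where 4.29% were. At 18 h the T cell and B cell lists were lower than Vehicle without overlap in Severe PE, and in Mild PE only the B cell list was. The mast cell list was also lower without overlap in 18-h Severe PE (566 to 983, against 1015 to 1281 in Vehicle). The natural killer cell list overlapped there (1444 to 2691, against 2118 to 4456). The share of all genes lower than Vehicle without overlap at 18 h is not given here. The summed signal of 7 T cell markers was 4825 to 6308 in 18-h Vehicle, 2875 to 5506 with Mild PE and 2084 to 3843 with Severe PE, and that of 2 B cell markers (of 4 listed) was 1830 to 2267, 728 to 1653 and 688 to 1223 in the same order. In 2-h Vehicle the T cell sum was 2333 to 4889 and the B cell sum 706 to 1134, and the 18-h PE sums overlapped these. The B cell sum of 18-h Vehicle stood above that of 2-h Vehicle without overlap, as 17.9% of all genes did. Cd3g (−0.95, adjusted p = 0.0307), Cd79b (−1.21, adjusted p = 0.0184) and the mast cell gene Kit (−0.66, adjusted p = 0.0307, limma) were called lower in 18-h Severe PE, and Cd8a was lower in Severe than in Mild PE at 2 h (−1.56, adjusted p = 0.0148). The calls in 18-h Severe PE were 1 of 7 T cell, 1 of 2 B cell and 1 of 5 mast cell markers, where 5.61% of all genes were called lower. Cd8a was 1 of 7 T cell markers, where 0.246% of all genes were called lower. The 4 platelet markers summed to 3850 to 5651 in Vehicle at 2 h and stood above it without overlap with Mild PE (6531 to 7847) and Severe PE (6535 to 9228), although none of them was called. Of all genes, 8.34% and 4.29% stood above 2-h Vehicle without overlap with these doses. This sum mostly reads Pf4 (mean log2 level 12.48, against 8.91 for Itga2b, the next brightest). No natural killer cell or red cell marker was called against Vehicle. The part of these cells in the cytokine values was not tested.

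The levels of the 6 genes over the 22 arrays were described by Pearson's r, without a test, since the arrays fall into groups and share the treatments. Tnf and Il1b had r = 0.91, Tnf and Il10 0.76, and Il1b and Il10 0.71. Il1rn had 0.32 with Tnf and 0.52 with Il1b, and Il18 had −0.28 to 0.26 with the other 5. Among 11081 genes of mean log2 level of at least 6, the most similar to Tnf were the chemokine genes Ccl3 (0.95) and Cxcl2 (0.94) and Tnfaip3 (0.92). Those most similar to Il1b were Ccl3 (0.91), Tnfaip3 (0.91) and Tnf itself (0.91). For Il1rn they were Cyba, a subunit of the phagocyte oxidase (0.94), Litaf (0.93) and Cst7 (0.93), and for Il1a Gadd45a (0.82), Nfkbia (0.82), the inhibitor of nuclear factor kappa B, and Stc1 (0.79). The nearest genes to Il10 were Sephs2 (0.82), Smndc1 (0.78) and Renbp (0.78), and those to Il18 Gtf2e2 (0.87), Bms1 (0.84) and Hnrnpu (0.82).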

How the data were processed

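Right-lung RNA of 22 rats had been hybridized to Affymetrix rat genome arrays. The deposited values were linear signal intensities per probe set that the authors had scaled so that each array had nearly the same trimmed mean, and not the log2 GC-RMA values of the study's methods. No aligner or genome build applies. The table held 31099 probe sets, of which 57 array controls were left out. Signals under 16 were set to 16, and log2 values were made alike in distribution across arrays by quantile normalization. Pairs of groups were compared with limma 3.58.1 in R 4.3.3 (linear fit with moderated variance, no trend) on the arrays of the 2 groups, and effects at 2 times and the model of time and dose on all 22 arrays. P-values were adjusted by Benjamini and Hochberg over 31042 probe sets. Symbols came from the annotation table of the array, in which 20826 probe sets had 1 symbol, 436 several and 9780 none. A gene was read from its probe set of highest mean. The code was tested on simulated data.

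The 6 genes, the pathway lists and the marker lists were chosen with earlier results of these data known. All 6 genes are named in all comparisons, as are the listed receptors and decoys and any other list gene called against Vehicle or between doses, and for each gene the 3 of highest Pearson's r. Samples were grouped by the labels, which describe 1 rat per sample. The replicate numbers were taken as names of rats, since the labels call them biological replicates. Deviations of the 51 same-numbered pairs correlated at −0.27 to 0.12. Pairs of unlike number were not set beside them, so a link between same-numbered rats was not tested. No 2 arrays were identical. Alternatives were another centring, no further normalization, quantile normalization before the floor, a floor of 64, a variance trend, a filter on low signal, 1 fit on all arrays, the replicate block, the methods' t-test, the mean of a gene's probe sets, leaving out the 4 arrays of weak 5′ signal, and leaving out each rat in turn.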

Additional observations from a re-analysis of the deposited data

Results flagged for a closer look

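In the groups of 4 rats, a rat was flagged where its gap to the nearest other rat was a large share of the group's range, which chance gives in about 1 of 20 groups. Of 24 such groups of the 6 genes, 4 were flagged. That rate does not apply to the 2 groups of Il10 among them, whose gaps are set by values at the floor. Il1b of 2-h Mild PE rat 4 was at a log2 level of 11.97, below the others, of which the lowest was at 12.47. Il10 of 2-h Severe PE rat 2 was at 4.90 while the other 3 were at the floor of 4, and Il10 of 18-h Mild PE rat 3 was at the floor of 4 while the others ran from 6.21 to 6.60. Il18 of 18-h Mild PE rat 4 was at 9.18, above the others at 8.31 to 8.40, and this is 1 of the 4 rats of weak 5′ signal.

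The other flagged results are effects that differed between the times. The log2 effect of Mild PE at 18 h minus that at 2 h was −2.37 for Tnf and −2.09 for Il1b, and both passed the test of the difference (limma, adjusted p = 0.0207 and 0.0464).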

How the results depend on the processing

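All 268 alternative values of the 14 called differences kept their direction, and 154 of them were still called. Of the 999 alternative values of the 52 differences not called, 15 were called and 26 changed sign. The few rats limit these calls, and probe sets near the floor, such as that of Il10, are limited by signal over background.

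The number of the 6 genes called changed as follows. Median centring gave 2 in 18-h Mild PE against Vehicle (in place of 1) and 1 for the Mild PE effect between times (in place of 2). A floor of 64 gave 2 in 2-h Mild PE against Vehicle (in place of 3), 0 between the doses at 2 h (in place of 2), 0 in 18-h Mild PE, 1 in 18-h Severe PE (in place of 2) and 0 between times in Severe PE (in place of 1). A variance trend gave 0 between times in Severe PE. Leaving out probe sets of low signal, Il10 among them, gave 2 in 2-h Mild PE, 1 in 2-h Severe PE (in place of 0), 1 between the doses at 2 h, 3 in 18-h Mild PE, 2 between times in Severe PE and 1 for the Severe PE effect between times (in place of 0). The fit on all 22 arrays gave 2 in 2-h Severe PE, 3 in 18-h Mild PE and 2 between times in Severe PE, and 2 between times in Mild PE (in place of 3, Il1b being lost). With the replicate block, in which the shared numbers are only names, counts fell to 0 in 2-h Mild PE (in place of 3), between the doses at 2 h, in 18-h Mild PE, in 18-h Severe PE, and between times in Mild PE (in place of 3) and in Severe PE, and to 1 for the Mild PE effect between times. The methods' t-test gave 1 in 2-h Mild PE, 0 between the doses at 2 h, 0 in 18-h Mild PE, 0 in 18-h Severe PE, 0 between times in Severe PE and 1 for the Mild PE effect between times. The mean of a gene's probe sets gave 0 in 18-h Mild PE, 0 between times in Severe PE and 1 for the Mild PE effect between times. Without the 4 arrays of weak 5′ signal there were 1 in 2-h Mild PE and 0 in 18-h Mild PE, 18-h Severe PE, between times in Severe PE and for the Mild PE effect between times. The cause was not tested.

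Leaving out 1 rat at a time gave 0 to 2 genes in 2-h Mild PE against Vehicle, 0 to 2 between the doses at 2 h, 0 to 2 in 18-h Mild PE, 0 to 3 in 18-h Severe PE, 1 to 3 between times in Mild PE, 0 to 1 between times in Severe PE, 0 to 2 for the Mild PE effect between times and 0 to 1 for the Severe PE effect. Counts stayed at 0 in 2-h Severe PE, between the doses at 18 h and between the Vehicle groups, and at 5 in the model of time and dose.

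Differences that changed sign were small and not called. Without further normalization Tnf was at −0.0019 between the Vehicle groups. With the replicate block Il18 was at 0.059 in 2-h Severe PE. Without the arrays of weak 5′ signal, Il1rn was at 0.085 between the doses at 2 h, Il18 at −0.17 in 18-h Mild PE and −0.052 between times in Mild PE, Tnf at −0.055 and Il1a at 0.037 between the Vehicle groups, and Il10 at −0.069 between times in Severe PE. Leaving out 1 rat gave −0.43 to 0.085 for Il1rn between the doses at 2 h, −0.075 to 0.67 for the Il1rn Severe PE effect between times, −0.064 to 0.42 for Tnf between the Vehicle groups, −0.13 to 0.23 for Il10 between times in Severe PE and −0.19 to 0.18 for its Severe PE effect, −0.48 to 0.059 for Il18 in 2-h Severe PE, −0.062 to 0.48 between times in Severe PE and −0.052 to 0.24 in Mild PE, and −0.074 to 0.31 for Il1a between the doses at 18 h.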
